A study of Mus musculus with 24 samples.

Results

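The genes described here encode the coagulation and complement proteins of blood plasma, and the measurement is acetylation of histone H3 at lysine 27 (H3K27ac), a chromatin mark of active promoters and enhancers, in mouse liver. The list holds 39 genes. Every acetylated region that the authors' annotation assigns to one of them was taken, which gave 153 of 63686 regions and 37 of the 16313 genes with a region. The other 2 genes, F5 (clotting factor V) and Fgb (the fibrinogen beta chain), have no region assigned to them and are not analysed here. The annotation goes by the closest transcription start site (TSS) and is no evidence that a region controls the gene it is listed under.

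The study asked what loss of the transcription factor Gata4 in hepatocytes does to liver chromatin in the fed and in the fasted state. All mice were 9 weeks old males of the C57BL/6J strain with floxed Gata4 alleles (Gata4 fl/fl), and all had been injected with an adeno-associated virus at 8 weeks, 7 days before they were killed. Knockout (KO) mice received AAV8-Tbg-Cre, in which a hepatocyte promoter drives the recombinase, so the other cells of the liver keep Gata4. Control mice received an empty AAV8 and carry the same floxed alleles. Refed mice of both genotypes were fasted for 12 h by day and then had a high-sucrose diet (69% sucrose, 10% fat) for 12 h overnight. Fasted mice of both genotypes were fasted for 12 h overnight, and every mouse was killed between 9 and 10 am, so feeding state and the clock time of the fast cannot be told apart. The 4 groups (KO refed, Control refed, KO fasted, Control fasted) have 3 mice each, 1 H3K27ac library per mouse. Labels of mice in 1 group begin with the same number, so a shared cage or litter and the group cannot be told apart.

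Coagulation factors circulate as inactive precursors that cleave one another in a cascade ending with thrombin, which turns fibrinogen into fibrin. Inhibitors such as antithrombin and the protein C system hold the cascade back, and plasmin dissolves the clot. Complement is a parallel protease cascade in which C3 and C4 are cleaved to mark surfaces for removal and the terminal components assemble into a membrane pore. Hepatocytes make most of these proteins, and many of their genes are controlled by liver transcription factors such as HNF4A and the C/EBP proteins.

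The libraries held 22336664 to 23613013 reads in regions in KO refed, 27399600 to 30419424 in Control refed, 23098820 to 25297413 in KO fasted and 22150912 to 27795426 in Control fasted mice. Values below are the authors' normalized reads per region, scaled so that every library has the same total of 25422600, and 1 read is worth 0.836 to 1.15 of a unit. Libraries of 1 group correlated with each other at Pearson's r of 0.954 to 0.963 across regions. The mark over Gata4 itself does not read the deletion. Its strongest region averaged 5490 ± 328 in KO refed and 4981 ± 213 in Control refed liver, and 4071 ± 167 in KO fasted and 3594 ± 168 in Control fasted liver (SD, n = 3 each). The limma adjusted p for KO against Control was 0.267 in refed and 0.227 in fasted liver.

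Hepatocyte marker genes had the strongest mark of the cell type lists checked, with a median of 273 units per kb over 12 genes in their strongest regions. The median was 119 for endothelial, 97.1 for cholangiocyte, 54.2 for stellate, 43.7 for Kupffer cell or macrophage and 41.0 for lymphocyte markers. The summed mark over the hepatocyte markers ranged over 63592 to 64770 in KO refed, 67283 to 76041 in Control refed, 73052 to 78345 in KO fasted and 73886 to 86323 in Control fasted mice. Of these 12 genes, 0 rose and 5 fell with refeeding in KO liver, and 1 rose and 3 fell in Control liver. Cholangiocyte markers moved with feeding: 6 of 7 measured genes of 10 listed rose with refeeding in KO liver and 6 of 7 in Control liver. Their summed mark was 5180 to 5465 in KO refed and 5105 to 5518 in Control refed mice, against 3379 to 4204 in KO fasted and 3605 to 4034 in Control fasted mice. The summed Kupffer cell or macrophage markers (6 measured of 10) stood at 1012 to 1197 in KO refed and 855 to 960 in Control refed mice. In fasted mice they stood at 639 to 659 in KO and 597 to 811 in Control. In Control liver Cx3cr1 was the 1 gene of this list that rose, and the median log2 change of the 6 was -0.03. In KO liver Cx3cr1 and Csf1r rose and the median was 0.49. No measured marker was at 0 in every mouse of a group (Cd3e, a lymphocyte marker, was at 0 in Control refed mouse 1), and none was called between KO and Control. The part of other cell types in the refeeding results was not tested.

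The coagulation and complement genes carry broad, strong domains of the mark. The strongest region of each gene, the one with the highest mean over all 12 libraries, was 8333 bp wide at the median of 37 genes, against 2981 bp for the strongest regions of all genes. Per kb it held a median of 245 units, against 171 for all genes, and 32 of 37 genes lay above that value. The level per kb was highest at Vtn (392), F10 (373), Masp2 (372), Serpinc1 (370) and Proc (369) and lowest at Cfb (42.7). In 32 of 37 genes the strongest region spans the TSS. These 153 regions took 0.484 to 0.562% of the reads of a library. Several members are neighbours with separate regions. Of the 37 genes, 13 fall into 6 groups whose regions lie within 100 kb of each other. Among these are F7, F10 and Proz within 41.2 kb on chromosome 8, F11 and Klkb1 within 35.6 kb on the same chromosome, and C8b and C8a within 83.7 kb on chromosome 4.

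With refeeding more of these regions fell than rose, and most of the falls lay inside the genes. In Control liver 51 of 153 regions fell and 16 rose when refed were set against fasted mice (limma, Benjamini-Hochberg adjusted p under 0.05), where 16.8% of all regions fell and 13.2% rose. The falls are 33.3% and the rises 10.5% of the 153 regions, and their median log2 change was -0.28, against -0.03 over all regions. In KO liver 25 regions fell and 9 rose (16.3% and 5.88%), where 11.4% of all regions fell and 13.3% rose, and the median log2 change was -0.16, against 0.02 over all regions. Many of the falls came from a few genes, whose regions are not independent. In Control liver F9 had 8 falls, C8b 7, C8a 6, and Pros1, Serping1 and Masp1 4 each. In KO liver F9 had 3, C8b 4, C8a 5, and Pros1, Serping1 and Masp1 1 each. Fewer cells that carry the mark and less mark per cell cannot be told apart in whole liver. Counting each gene once by its strongest region, 7 genes rose and 2 fell in KO liver (22.6% and 10.6% of all genes) and 9 rose and 7 fell in Control liver (21.2% and 12.2% of all genes). The direction of that last split rests on 2 libraries: it was 6 up and 9 down without Control fasted mouse 3, and 6 up and 8 down without Control refed mouse 1. Every refed mouse was above every fasted mouse at 9 of 37 strongest regions in KO and 12 in Control liver. Among all genes that held for 38% and 31%. Every refed mouse was below at 8 of 37 in each genotype, and at 15.4% of all genes in each. Separation of the groups at a gene is thus common.

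**Figure D1:**
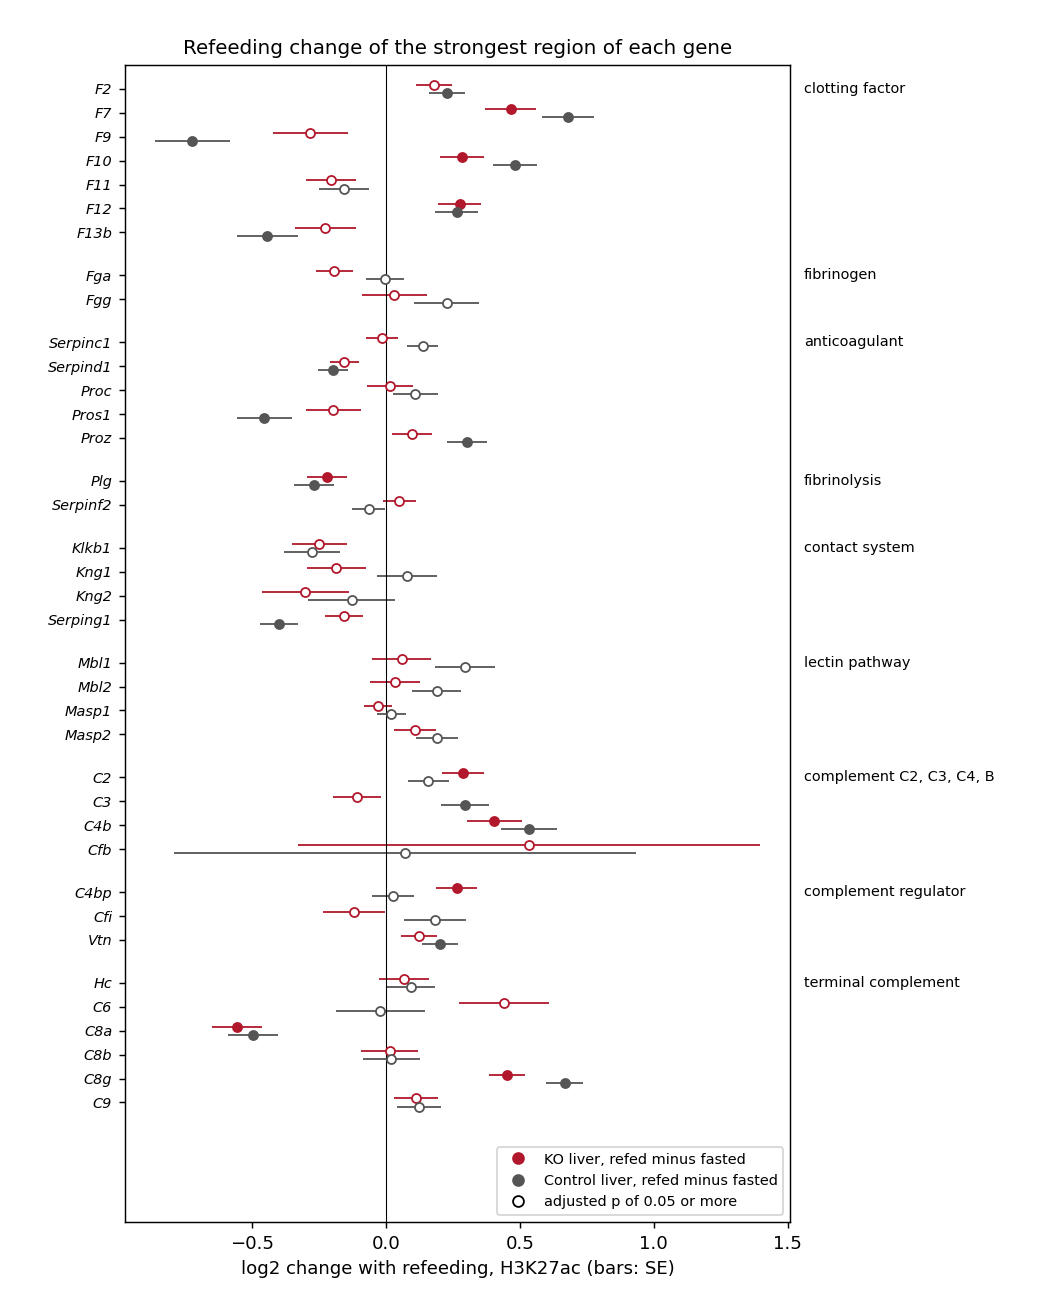
Log2 change with refeeding (x axis, refed minus fasted, bars are SE) of the strongest H3K27ac region of each of 37 genes, grouped by role, in KO liver (red) and Control liver (grey). Filled points have a limma adjusted p under 0.05. F7, C8g and C4b lie to the right in both genotypes and C8a to the left, and the strongest regions of F9 and Pros1 are called in Control liver and not in KO liver.

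Among the clotting factors, F7 and F10, which encode the proteases that start the cascade and form the prothrombin-cleaving complex, rose with refeeding in both genotypes, while F9, whose product is missing in haemophilia B, fell at 8 of its 9 regions in Control liver. Of 27 regions of the 7 factor genes with a region, 4 rose and 5 fell in KO liver and 5 rose and 12 fell in Control liver. Over all regions 13.3% rose and 11.4% fell in KO liver, and 13.2% rose and 16.8% fell in Control liver. The strongest F7 region (mm9 chr8:13024001-13029293, across the TSS and into an intron) had 1564, 1589 and 1626 units in KO refed and 1691, 1550.4 and 1636 in Control refed mice, against 1277, 1214 and 989.8 in KO fasted and 1098, 1024 and 927 in Control fasted mice. All 6 refed mice were above all 6 fasted mice. The log2 change was 0.46 ± 0.10 in KO liver (SE, adjusted p = 0.0026) and 0.68 ± 0.10 in Control liver (adjusted p = 8.64e-05). A smaller F7 region 27705 bp upstream had 81.0, 133 and 85.1 units in KO refed and 72.7, 95.6 and 93.2 in Control refed mice, against 30.1, 31.9 and 16.9 in KO fasted and 22.0, 18.4 and 36.7 in Control fasted mice. Refed and fasted mice did not overlap there either, and the log2 change was 1.90 ± 0.32 in KO (adjusted p = 0.000545) and 1.77 ± 0.32 in Control liver (adjusted p = 0.000632). F10 (chr8:13033780-13042112) had 2988, 3378 and 3152 units in KO refed and 3843, 3985 and 3774 in Control refed mice, against 2827, 2617 and 2389 in KO fasted and 2995, 2864 and 2479 in Control fasted mice. Refed mice exceeded fasted mice in each genotype, with a log2 change of 0.28 ± 0.08 in KO (adjusted p = 0.0204) and 0.48 ± 0.08 in Control liver (adjusted p = 0.000425). The F10 call in KO liver was lost under median-ratio rescaling, edgeR and DESeq2, and without KO fasted mouse 3 (adjusted p = 0.0972) or KO refed mouse 2 (0.0911).

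F9 (strongest region mm9 chrX:57251762-57256849) had 495, 536 and 565 units in KO refed and 523, 486 and 506 in Control refed mice, against 572, 757 and 625 in KO fasted and 962, 654 and 925 in Control fasted mice. Refed mice were below fasted mice in both genotypes, and Control fasted mouse 2 lay closer to the KO fasted mice than to the other two of its group. The log2 change was -0.28 ± 0.14 in KO (adjusted p = 0.156) and -0.72 ± 0.14 in Control liver (adjusted p = 0.00109). Of 9 F9 regions, 8 fell in Control liver and 3 in KO liver, and the other 8 all lie in introns downstream of the strongest one. The region 8785 bp from the TSS had 180.0, 204 and 192 units in KO refed and 135, 115 and 126 in Control refed mice, against 389, 473 and 433 in KO fasted and 632, 353 and 644 in Control fasted mice. There the refed mice held less than the lowest fasted mouse in each genotype, with a log2 change of -1.16 ± 0.19 in KO (adjusted p = 0.000414) and -2.06 ± 0.19 in Control liver (adjusted p = 1.73e-06). The largest fall among called regions of Control liver was at F9, 11347 bp from the TSS, where KO refed mice had 13.5, 1.14 and 16.1 and Control refed mice 7.52, 0 and 15.1 units, against 27.1, 40.7 and 28.5 in KO fasted and 76.8, 41.4 and 86.1 in Control fasted mice (Control log2 change -3.68 ± 0.90, adjusted p = 0.00587). Such values rest on few reads, since 3 reads correspond to 2.51 to 3.44 units, and the fitted change depends on the pseudocount. Further intronic regions 17282, 18397 and 27016 bp from the TSS had log2 changes of -2.77, -2.18 and -2.91 in Control liver, all called. The first of these calls was lost in 5 of 19 alternatives, 4 of them without Control fasted mouse 1 or 3 or Control refed mouse 1 or 2 (adjusted p of 0.0546 to 0.16).

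The promoters of F7 and F9 are shown because both lie under a strongest region and the 2 moved in opposite directions in Control liver. They are RefSeq sequences on GRCm38.p6, 250 bases before to 50 after the start, read on the gene's strand. Regions are on mm9, and no position is carried from one build to the other. Capitals mark matches to CAAAGGTCA (an HNF4 motif, here on the reverse strand in F7) and TTGCNNAA (C/EBP), searched on both strands with CAAAGTCCA as the second HNF4 spelling.
F7, chr8:13025784-13026083, plus strand: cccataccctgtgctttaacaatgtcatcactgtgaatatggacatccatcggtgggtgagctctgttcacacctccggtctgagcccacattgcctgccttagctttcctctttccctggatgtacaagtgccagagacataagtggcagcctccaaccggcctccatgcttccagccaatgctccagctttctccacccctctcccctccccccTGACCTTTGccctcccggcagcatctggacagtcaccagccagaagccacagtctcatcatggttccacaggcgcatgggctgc
F9, chrX:59999214-59999513, plus strand: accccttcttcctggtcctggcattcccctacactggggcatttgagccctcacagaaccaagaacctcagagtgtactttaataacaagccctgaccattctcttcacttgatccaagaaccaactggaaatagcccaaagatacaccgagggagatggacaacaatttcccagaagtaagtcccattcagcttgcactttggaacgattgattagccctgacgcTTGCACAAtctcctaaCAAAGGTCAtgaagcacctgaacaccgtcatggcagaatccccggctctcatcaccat
Counted from its first base as printed, the HNF4 match begins 34 bases before the F7 start and 8 bases before the F9 start, and the C/EBP match begins 24 bases before the F9 start. An HNF4 match was found in 2 of 31 promoters of 30 members with an entry (6.45%) and in 0.95% of 32851 promoters. A C/EBP match was found in 9 of 31 (29.0%) and in 10.8% of all promoters. A match is a string of letters and not evidence of binding.

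The other clotting factors had smaller log2 changes at their strongest regions than F7, F10 and F9 in Control liver. F2, the gene of prothrombin, had 2922, 3127 and 3361 units in KO refed and 3274, 3334 and 3232 in Control refed mice, against 2700.3, 2722 and 2883 in KO fasted and 2786, 2656 and 2970.2 in Control fasted mice. Refed mice were higher in both genotypes, but only the Control change of 0.23 ± 0.07 passed (adjusted p = 0.019, and 0.0676 for 0.18 ± 0.07 in KO liver). That F2 call was lost without Control fasted mouse 2 (adjusted p = 0.0764) or Control refed mouse 2 (0.0545). F12, the factor that starts the contact pathway, had 1910.0, 2302 and 2201 units in KO refed and 2123, 2165 and 1927 in Control refed mice, against 1766, 1835 and 1690.1 in KO fasted and 1789, 1708 and 1678 in Control fasted mice. Refed mice were above fasted mice in both genotypes, and F12 rose by 0.27 ± 0.08 in KO (adjusted p = 0.0214) and 0.26 ± 0.08 in Control liver (adjusted p = 0.0218). The F12 call in KO liver was lost under median-ratio rescaling, edgeR and DESeq2 (adjusted p of 0.0669, 0.0608 and 0.0503), and that in Control liver under quantile normalization (0.0505). Leaving out 1 mouse ended the F12 call in Control liver for 4 mice (all but Control fasted mouse 1 and Control refed mouse 3; adjusted p of 0.0538 to 0.0777) and in KO liver for 4 (all but KO fasted mouse 2 and KO refed mouse 1; 0.0519 to 0.102). F13b, the carrier subunit of the factor that cross-links fibrin, had 963, 1318 and 1004 units in KO refed and 1127, 979 and 1001 in Control refed mice, against 1232, 1360.3 and 1222 in KO fasted and 1522, 1265 and 1447 in Control fasted mice. In Control liver the groups did not overlap and the change was -0.44 ± 0.11 (adjusted p = 0.00834). In KO liver 1 refed mouse lay within the fasted range (-0.23 ± 0.11, adjusted p = 0.166). F11, a protease that amplifies thrombin formation, did not pass at its strongest region (-0.21 ± 0.09 in KO and -0.16 ± 0.09 in Control liver). A region at its 3' end 21780 bp from the TSS fell by 0.42 ± 0.12 in KO and 0.48 ± 0.12 in Control liver (adjusted p = 0.0154 and 0.00575). That 3' region of F11 was chosen after its values were seen, and its KO call was lost without KO fasted mouse 1 or KO refed mouse 1 or 2 (adjusted p of 0.0602 to 0.0678).

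Neither of the fibrinogen genes with a region was called at its strongest region in any comparison. Fga, the alpha chain gene, lies under the widest region of the list (41521 bp, chr3:82818871-82860391) and had 7153 to 7649.6 units in KO refed and 7017 to 8400.0 in Control refed mice, against 8312 to 8849.9 in KO fasted and 7117 to 8208 in Control fasted mice. The groups overlapped in Control liver (-0.00 ± 0.07, adjusted p = 0.979), and in KO liver the refed mice were below the fasted mice without passing (-0.19 ± 0.07, adjusted p = 0.0583). Fgg, the gamma chain gene next to it, had a log2 difference of 0.03 ± 0.12 in KO and 0.23 ± 0.12 in Control liver, and Control refed mouse 1 was highest of all 12 at 4346 units, against 2618 to 3375 in the 6 fasted mice. None of 6 regions of the pair was called with refeeding in either genotype. The 3 fibrinogen genes lie side by side, and how much of the Fga region belongs to Fgb cannot be told apart.

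Of the anticoagulant genes, Pros1, which encodes protein S, the cofactor of activated protein C, fell with refeeding in Control liver, with its largest changes in introns, and Proz rose. Of 22 regions of the 5 anticoagulant genes, 0 rose and 2 fell in KO liver and 2 rose and 6 fell in Control liver. Over all regions 13.3% rose and 11.4% fell in KO liver, and 13.2% rose and 16.8% fell in Control liver. The KO falls are near that share. The strongest Pros1 region (mm9 chr16:62852623-62858052) had 1038, 1142 and 1041 units in KO refed and 1089.8, 1040.1 and 1051 in Control refed mice, against 1198, 1247 and 1246 in KO fasted and 1550.3, 1193 and 1662 in Control fasted mice. Refed mice were below fasted mice in each genotype, and Control fasted mouse 2 was again the lowest of its group. The log2 change was -0.20 ± 0.10 in KO (adjusted p = 0.184) and -0.46 ± 0.10 in Control liver (adjusted p = 0.00371). A region 17169 bp into the gene had 147, 99.0 and 161 units in KO refed and 99.5, 52.0 and 77.3 in Control refed mice, against 327, 336 and 279.9 in KO fasted and 514, 372 and 808 in Control fasted mice. The change was -1.23 ± 0.27 in KO (adjusted p = 0.00408) and -2.85 ± 0.27 in Control liver (adjusted p = 2.44e-06), and no refed mouse reached any fasted mouse. Of 7 Pros1 regions, 1 fell in KO liver and 4 in Control liver. With the regions of a gene summed, both genes fell in both genotypes: F9 by 0.66 ± 0.17 in KO (adjusted p = 0.00845) and 1.33 ± 0.17 in Control liver (adjusted p = 4.35e-05), and Pros1 by 0.35 ± 0.12 (adjusted p = 0.0304) and 0.86 ± 0.12 (adjusted p = 6.85e-05).

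The Pros1 promoter is shown because it is the only one printed here with a GATA motif, although its strongest region had no GATA4 peak within 500 bp in the authors' table. Capitals mark TGATAA, which begins 169 bases before the start; the search used AGATAA and TGATAA on both strands.
Pros1, GRCm38.p6 chr16:62854057-62854356, plus strand: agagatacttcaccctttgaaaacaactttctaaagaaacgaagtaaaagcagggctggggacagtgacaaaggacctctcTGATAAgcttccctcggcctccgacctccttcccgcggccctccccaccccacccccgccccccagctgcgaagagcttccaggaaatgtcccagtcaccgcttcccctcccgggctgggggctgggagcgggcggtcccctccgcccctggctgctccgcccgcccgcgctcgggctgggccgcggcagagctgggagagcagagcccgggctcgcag
A GATA match was found in 5 of 31 member promoters (16.1%) and in 18.6% of all promoters.

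Proz, which encodes the cofactor of an inhibitor of factor Xa and is the neighbour of F10, had 3920.0, 4405 and 4120.3 units in KO refed and 4925, 5230.3 and 4533 in Control refed mice, against 4026, 3899 and 3718 in KO fasted and 4216, 4084 and 3619.8 in Control fasted mice. In Control liver the groups did not overlap and the change was 0.30 ± 0.07 (adjusted p = 0.00618). In KO liver they overlapped (0.10 ± 0.07, adjusted p = 0.383). Serpind1, the gene of heparin cofactor II, had 3539, 3782 and 3587 units in KO refed and 3600.3, 3554 and 3405 in Control refed mice, against 4091, 3949 and 4118 in KO fasted and 3985, 4029 and 4106 in Control fasted mice. Refed mice were below fasted mice in both genotypes. The log2 difference was -0.16 ± 0.06 in KO (adjusted p = 0.0502) and -0.20 ± 0.06 in Control liver (adjusted p = 0.0128), a Control call that was lost under median-ratio rescaling (0.0724), edgeR (0.0556) and DESeq2 (0.0532), and without Control refed mouse 3 (0.0616). Serpinc1, the gene of antithrombin, had a log2 difference of -0.02 ± 0.06 in KO and 0.14 ± 0.06 in Control liver and was not called. Proc, the gene of protein C, was not called at its strongest region (0.01 ± 0.09 in KO and 0.11 ± 0.09 in Control liver).

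**Figure D2:**
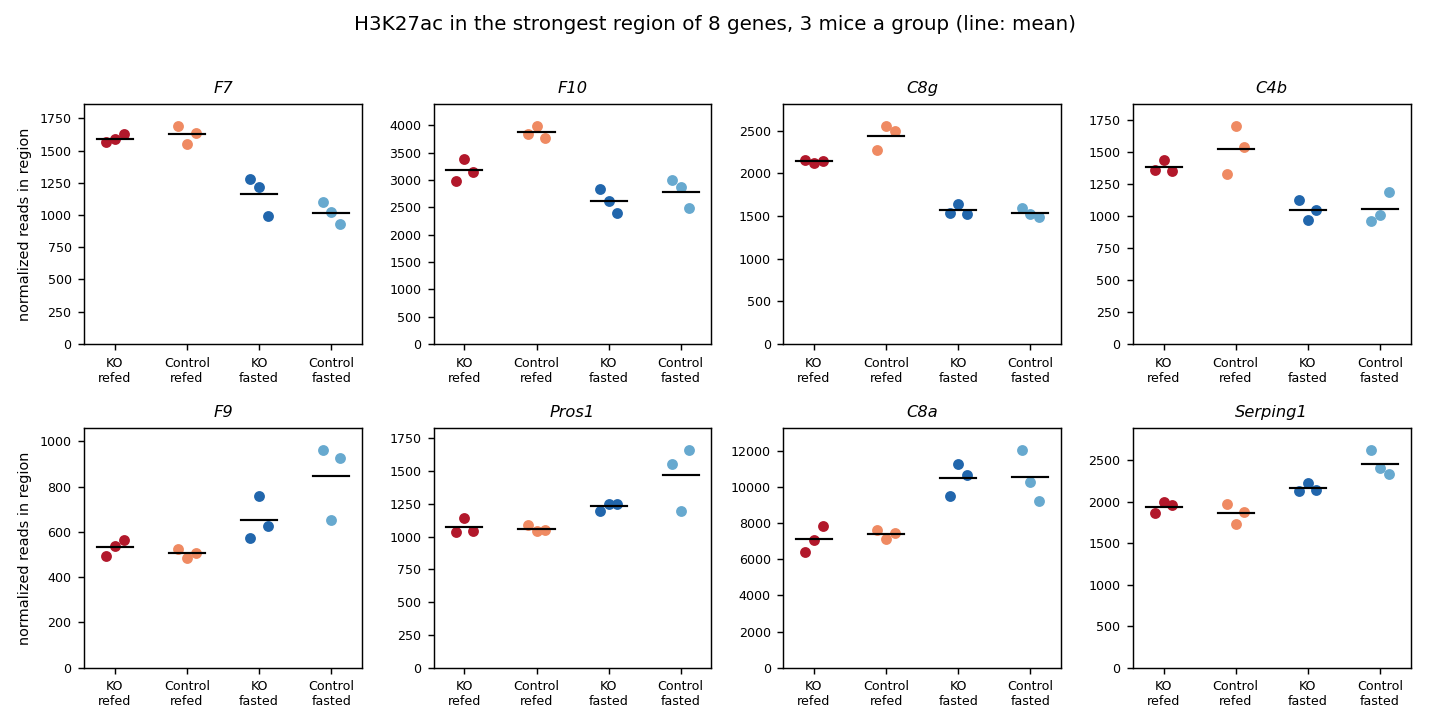
Normalized H3K27ac reads (y axis, from 0) in the strongest region of 8 genes, 1 point per mouse and a line at the mean of 3 mice, in KO refed, Control refed, KO fasted and Control fasted liver. F7, F10, C8g and C4b are higher in refed mice and F9, Pros1, C8a and Serping1 lower; in the F9 and Pros1 panels 1 Control fasted mouse lies below the other Control fasted mice.

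In fibrinolysis and the contact system, the calls with refeeding were falls, at 1 of 11 fibrinolysis and 2 of 16 contact regions in KO liver, where 11.4% of all regions fell, and at 3 and 7 in Control liver, where 16.8% of all regions fell. The KO counts are near that share. Plg, the gene of plasminogen, had 5337, 5593 and 5100.0 units in KO refed and 6273, 5381 and 5243 in Control refed mice, against 6068, 6136 and 6491 in KO fasted and 7363, 6567 and 6419 in Control fasted mice. Refed mice were below fasted mice in both genotypes. The log2 change was -0.22 ± 0.07 in KO (adjusted p = 0.0392) and -0.27 ± 0.07 in Control liver (adjusted p = 0.0119), and both calls were lost under median-ratio rescaling, edgeR and DESeq2. Under quantile normalization the KO change of Plg was -0.10 and was lost too (adjusted p = 0.241). The Plg call was also lost in Control liver without Control fasted mouse 1 (adjusted p = 0.0609) or Control refed mouse 3 (0.0627), and in KO liver without any 1 of 5 of the 6 KO mice, KO refed mouse 2 being the exception (0.0611 to 0.131). Serpinf2, which encodes the plasmin inhibitor, had a log2 difference of 0.05 ± 0.06 in KO and -0.07 ± 0.06 in Control liver and did not pass. Serping1, the gene of C1 inhibitor, which restrains both the contact system and the first step of complement, had 1865, 1997 and 1964 units in KO refed and 1979.9, 1737 and 1872 in Control refed mice, against 2128, 2233 and 2141 in KO fasted and 2628, 2409.6 and 2338 in Control fasted mice. Refed mice were below fasted mice in both genotypes, and the change was -0.16 ± 0.07 in KO (adjusted p = 0.124) and -0.40 ± 0.07 in Control liver (adjusted p = 0.00063). That region lies 15701 bp downstream of the start. Across the start a region fell by 0.36 ± 0.07 in Control liver (adjusted p = 0.00147) and had a log2 difference of -0.06 ± 0.07 in KO liver (adjusted p = 0.587).

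Klkb1, the gene of plasma prekallikrein, was not called at its strongest region (-0.25 ± 0.10 in KO, adjusted p = 0.0926, and -0.28 ± 0.10 in Control liver, adjusted p = 0.0545). A region 10372 bp upstream of Klkb1, chosen after its values were seen, had 522, 535 and 436 units in KO refed and 416, 299.7 and 388 in Control refed mice, against 820.0, 718 and 918 in KO fasted and 839, 780.2 and 679 in Control fasted mice. All refed mice were below all fasted mice (-0.72 ± 0.14 in KO, adjusted p = 0.00162, and -1.06 ± 0.14 in Control liver, adjusted p = 4.13e-05). Kng1 and Kng2 encode kininogens, the source of bradykinin, and no region of either was called; they are paralogs, so reads may be split between them. Their changes were -0.19 ± 0.11 and -0.30 ± 0.16 in KO and 0.08 ± 0.11 and -0.13 ± 0.16 in Control liver.

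In the lectin pathway of complement, no strongest region was called in either genotype. The log2 changes of Mbl1 and Mbl2, the mannose-binding lectins that recognise sugars on microbes, and of their proteases Masp1 and Masp2 lay between -0.03 and 0.11 in KO and between 0.02 and 0.29 in Control liver. Masp1 lies under a domain 29099 bp wide, with 8723 to 9677 units in KO refed, 9168 to 9706 in Control refed, 9180.2 to 9749.8 in KO fasted and 8936 to 9541 in Control fasted mice. Of 25 regions of these 4 genes, 0 rose and 5 fell in KO liver and 3 rose and 7 fell in Control liver. Over all regions 13.3% rose and 11.4% fell in KO liver, and 13.2% rose and 16.8% fell in Control liver. Mbl2 had 3 regions that rose in Control liver and none in KO liver. The farthest of these 3, 55419 bp from the TSS, had 186, 221 and 175 units in KO refed and 162, 168 and 231 in Control refed mice, against 142, 138 and 116 in KO fasted and 74.1, 71.7 and 116 in Control fasted mice. It rose by 1.11 ± 0.20 in Control liver (adjusted p = 0.000732) and had a log2 difference of 0.55 ± 0.20 in KO liver (adjusted p = 0.0593). It was chosen after its values were seen. Among named regions of KO liver, one 7757 bp upstream of Mbl1 fell by 2.38 ± 0.64 (adjusted p = 0.0137), with 7.87, 6.83 and 3.23 units in KO refed and 29.1, 39.6 and 32.7 in KO fasted mice. A region 20740 bp upstream of Masp1 fell by 1.43 ± 0.44 in KO (adjusted p = 0.0266) and by 1.78 ± 0.44 in Control liver (adjusted p = 0.00609). The Mbl1 call was lost without KO refed mouse 3 (adjusted p = 0.0508) and the Masp1 call in KO liver without KO fasted mouse 1 or 3 or KO refed mouse 1 (0.0831 to 0.118).

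Among C2, C3, C4b and Cfb, the components that are cleaved to build the enzymes of complement, 3 of 9 regions rose in KO liver and 4 in Control liver with refeeding, and 0 fell in either. Over all regions 13.3% rose and 11.4% fell in KO liver, and 13.2% rose and 16.8% fell in Control liver. C4b, the gene of C4, had 1358, 1436 and 1350.1 units in KO refed and 1325, 1702 and 1538 in Control refed mice, against 1124, 967 and 1046 in KO fasted and 961, 1004 and 1187 in Control fasted mice. Refed mice exceeded fasted mice in each genotype, with a change of 0.40 ± 0.10 in KO (adjusted p = 0.0104) and 0.53 ± 0.10 in Control liver (adjusted p = 0.00121). The region across the C4b start rose by 0.40 ± 0.08 in Control liver (adjusted p = 0.00118) and had a log2 difference of 0.18 ± 0.08 in KO liver (adjusted p = 0.1). Another 21345 bp from the start rose by 1.51 ± 0.37 in KO (adjusted p = 0.00813) and by 1.19 ± 0.37 in Control liver (adjusted p = 0.0245). This last Control call was lost in the fit of the compared groups only (adjusted p = 0.0533) and without Control fasted mouse 1 or Control refed mouse 2 or 3 (0.0826 to 0.117). The near-identical gene C4a also rose in Control liver (0.52 ± 0.10, adjusted p = 0.00121), and reads of the pair cannot be told apart with certainty. C2, which with C4 forms the enzyme that cleaves C3, had 1084, 1163 and 1186 units in KO refed and 959, 1049 and 972 in Control refed mice, against 964, 938 and 912 in KO fasted and 869, 918 and 886 in Control fasted mice. Every refed mouse was above the fasted mice of its genotype, as at 38% of all genes in KO and 31% in Control liver. It rose by 0.29 ± 0.08 in KO liver (adjusted p = 0.0134; 0.0502 without KO fasted mouse 3 and 0.0519 without KO refed mouse 3) and had a log2 difference of 0.16 ± 0.08 in Control liver (adjusted p = 0.143). C3, the central component, rose by 0.29 ± 0.09 in Control liver (adjusted p = 0.0211) and had a log2 difference of -0.11 ± 0.09 in KO liver (adjusted p = 0.402). The C3 call in Control liver was lost with edgeR (adjusted p = 0.0592) and without Control fasted mouse 3 (0.0952) or Control refed mouse 1 (0.0873). Cfb, the alternative pathway protease that neighbours C2, has 1 weak region of 473 bp with 0.919 to 42.0 units, and its change of 0.53 ± 0.86 in KO and 0.07 ± 0.86 in Control liver did not pass.

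Of the regulators, Vtn, whose product vitronectin blocks the membrane pore, rose by 0.20 ± 0.07 in Control liver (adjusted p = 0.0339) and had a log2 difference of 0.12 ± 0.07 in KO liver (adjusted p = 0.21). C4bp, whose product helps to break down activated C4, rose by 0.26 ± 0.08 in KO liver (adjusted p = 0.0229) and had a log2 difference of 0.03 ± 0.08 in Control liver (adjusted p = 0.838). The Vtn call was lost with edgeR, in the fit of the compared groups only and without any 1 of 5 of the 6 Control mice, Control refed mouse 3 being the exception (adjusted p of 0.064 to 0.121). The C4bp call was lost with median-ratio rescaling, edgeR and DESeq2 and without KO fasted mouse 1 or 2 or KO refed mouse 2 or 3 (0.0543 to 0.0977). Cfi, the protease that cleaves C3b and C4b, had a log2 difference of -0.12 ± 0.12 in KO and 0.18 ± 0.12 in Control liver, with no call.

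The terminal components, which form the membrane pore, went both ways even within the C8 complex, whose 3 chains are encoded by C8a, C8b and C8g. Of 33 regions of the 6 terminal genes, 1 rose and 10 fell in KO liver and 1 rose and 16 fell in Control liver. Over all regions 13.3% rose and 11.4% fell in KO liver, and 13.2% rose and 16.8% fell in Control liver. C8g, on chromosome 2, had 2157, 2124 and 2145 units in KO refed and 2275, 2555 and 2495 in Control refed mice, against 1539, 1644 and 1520.0 in KO fasted and 1589, 1529 and 1489.7 in Control fasted mice. All refed mice were above all fasted mice, and the change was 0.45 ± 0.07 in KO (adjusted p = 0.000252) and 0.67 ± 0.07 in Control liver (adjusted p = 4.98e-06). C8a, on chromosome 4, has its strongest region 46700 bp from the TSS (33708 bp wide, chr4:104485450-104519157), with 6415, 7080.5 and 7856 units in KO refed and 7637, 7143 and 7485 in Control refed mice, against 9478, 11280.1 and 10668 in KO fasted and 12061, 10304 and 9232 in Control fasted mice. Here all refed mice were below all fasted mice, and the change was -0.56 ± 0.09 in KO (adjusted p = 0.000526) and -0.50 ± 0.09 in Control liver (adjusted p = 0.000909). Of 7 C8a regions, 5 fell in KO and 6 in Control liver.

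C8b, the neighbour of C8a, was not called at its start (0.01 ± 0.11 in KO and 0.02 ± 0.11 in Control liver, adjusted p = 0.947 and 0.922), while 4 of its 9 regions fell in KO and 7 in Control liver. The region 26106 bp into C8b had 7.87, 6.83 and 19.4 units in KO refed and 5.01, 7.42 and 2.66 in Control refed mice, against 41.2, 46.2 and 42.3 in KO fasted and 26.5, 37.7 and 39.02 in Control fasted mice. Refed and fasted mice did not overlap, and the change was -1.98 ± 0.46 in KO (adjusted p = 0.00592) and -2.61 ± 0.46 in Control liver (adjusted p = 0.000575). Further named falls in KO liver were at C8a 19471 bp from the start (-3.73 ± 0.91, with 0, 2.28 and 0 units in KO refed and 17.1, 29.7 and 12.7 in KO fasted mice), at C8a 16887 bp from the start (-1.72 ± 0.39) and 39549 bp upstream of C8b (-1.50 ± 0.24). Their adjusted p was 0.00751, 0.00479 and 0.000409. Hc (complement C5), C6 and C9 were not called at their strongest regions, with changes of 0.07 ± 0.09, 0.44 ± 0.17 and 0.11 ± 0.08 in KO and 0.09 ± 0.09, -0.02 ± 0.17 and 0.12 ± 0.08 in Control liver, and at Hc 1 further region fell in KO and 2 in Control liver. A C6 region 6546 bp into the gene, chosen after its values were seen, fell in Control liver (-0.80 ± 0.16, adjusted p = 0.00114).

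**Figure D3:**
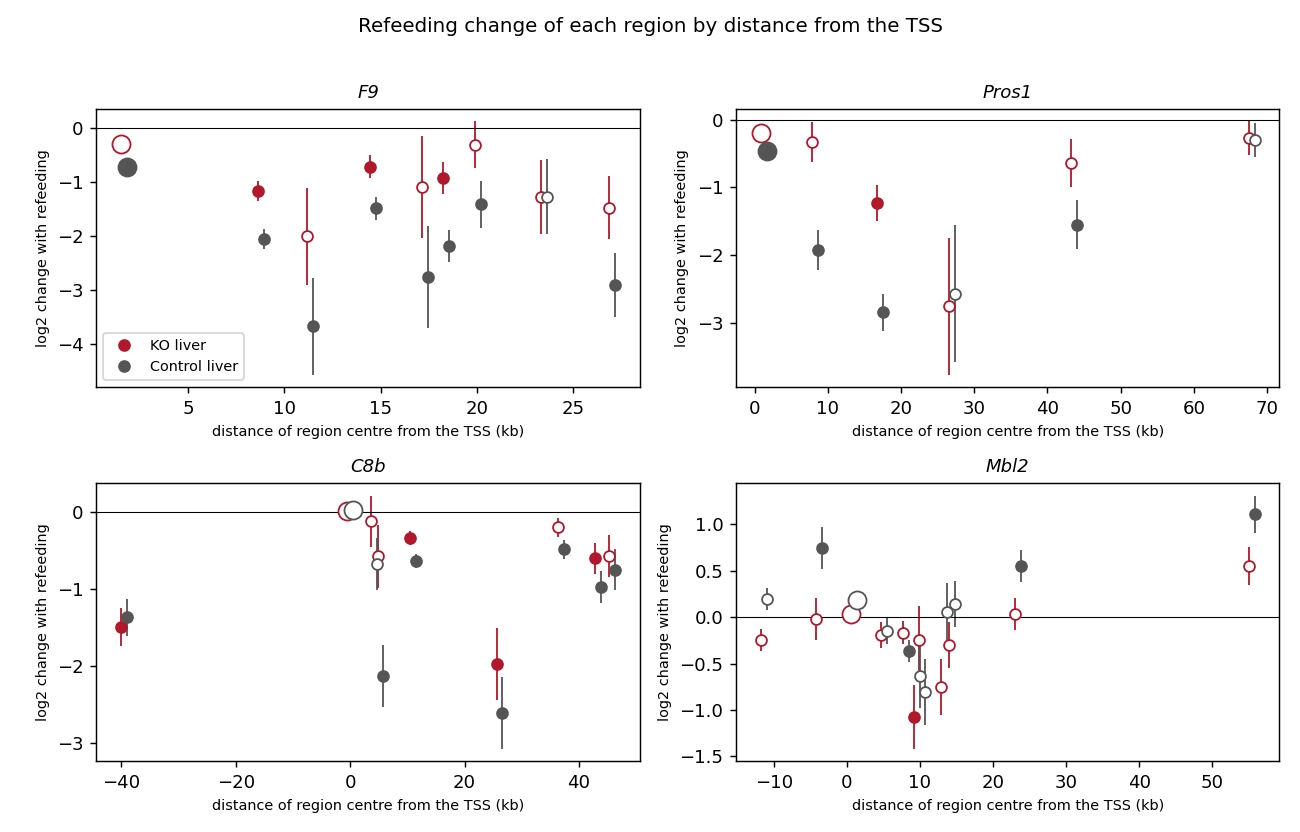
Log2 change with refeeding (y axis, bars are SE) of every region of F9, Pros1, C8b and Mbl2 by the distance of its centre from the TSS in kb (x axis, points of each genotype set slightly apart), in KO liver (red) and Control liver (grey). Large points are the strongest region, filled points have an adjusted p under 0.05, and a Pros1 region 251 kb away is left out. The strongest regions lie between -0.72 and 0.19, while regions further into F9, Pros1 and C8b reach -3.68 in Control liver.

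Most of the falls lay inside genes, away from the start. This split was made after the values were seen. Regions of the same gene count separately in these shares and are not independent. Among the 36 regions that span a TSS, 6 rose and 1 fell in KO liver (24.6% and 6.05% of all such regions) and 9 rose and 7 fell in Control liver (21.6% and 7.15%). Among the 66 regions in introns or exons that do not span the TSS, 2 rose and 14 fell in KO liver (9.8% and 12.6% of all such regions). In Control liver 2 of these 66 rose and 33 fell, 50% of them, where 10% rose and 19.7% fell among all such regions. Their median log2 change was -0.29 in KO and -0.69 in Control liver, against -0.07 and -0.17 for all such regions. The remaining 51 regions, outside introns and exons, held 1 rise and 10 falls in KO liver (11.5% and 12.8% of all such regions) and 5 rises and 11 falls in Control liver (12.4% and 18.5%). Of the 116 regions that are not the strongest of their gene, 57 average under 50 units, so many of these falls rest on low values. The 33 falls inside genes in Control liver became 27 to 33 when 1 library was left out, and 23 without the regions in the lowest 25% by mean.

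No region called with refeeding in both genotypes had opposite signs in them. Of 9 rises in KO liver and 16 in Control liver, 7 were shared (77.8% of the KO and 43.8% of the Control rises). Of 25 falls in KO and 51 in Control liver, 22 were shared (88.0% and 43.1%), and 0 were opposite. Across the 153 regions the 2 refeeding changes, which share no library, had a Pearson's r of 0.747, against 0.769 across all 63686 regions; regions are not independent replicates. The change was smaller in KO liver at 43 of 51 regions that fell and at 13 of 16 that rose in Control liver, a count in which the choice by the Control result itself favours larger Control changes. The difference between the 2 refeeding effects was tested directly. No region passed limma or edgeR. With limma 0.0157% of all regions were higher and 0.00785% lower. Of the 153 regions 25 had an unadjusted p under 0.05, and DESeq2 called 1. Over all 63686 regions DESeq2 called 314 higher and 195 lower. Of the strongest regions none was called either (0.0245% of all genes; 5 had an unadjusted p under 0.05, and edgeR and DESeq2 called 0).

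**Figure D4:**
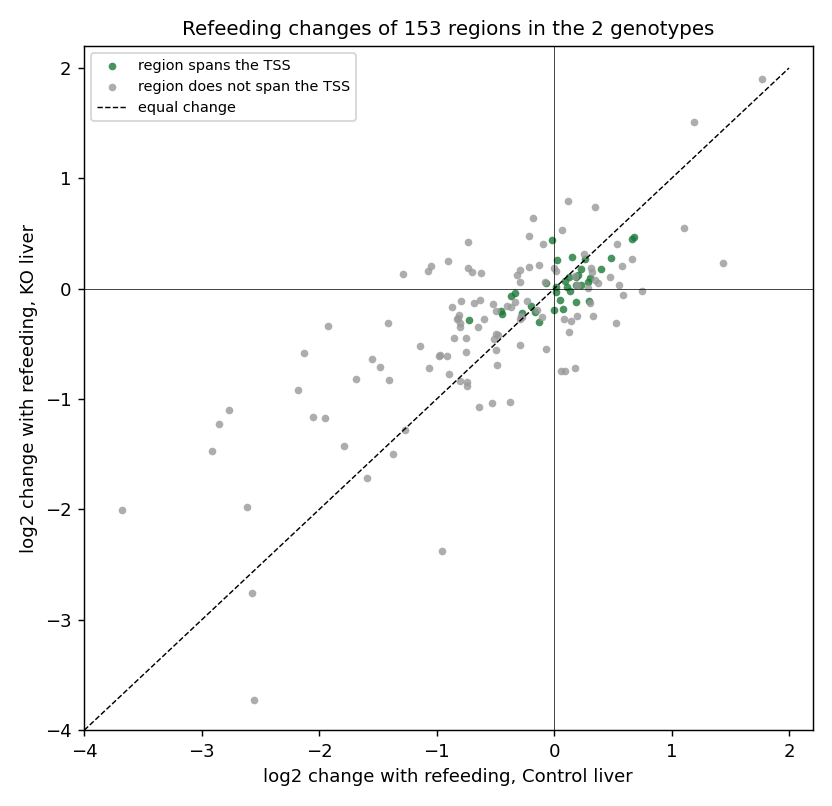
Log2 change with refeeding in KO liver (y axis) against that in Control liver (x axis) for 153 regions, green where the region spans the TSS and grey where it does not, with a dashed line of equal change. Regions that span the TSS lie between -0.72 and 0.68 on the x axis, and most large falls are in regions that do not span it and lie above the line.

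Few of these regions were called between KO and Control liver. In fasted liver 1 region was higher and 1 lower in KO than in Control mice (0.312% and 0.245% of all regions), both of them strongest regions of their gene (0.349% and 0.368% of all genes). In refed liver 3 regions were higher and 0 lower (1.73% and 0.297% of all regions). None of the strongest regions was called (1.54% of all genes' in either direction; 6 had an unadjusted p under 0.05, edgeR called 0 and DESeq2 4). Over all 63686 regions DESeq2 called 1555 higher and 1168 lower in KO refed liver. Summed stellate cell markers (8 measured of 10) were lower in KO mice without overlap in both feeding states. They stood at 1363 to 1484 units in KO refed against 1709 to 1746 in Control refed mice. In fasted mice the sums were 1211 to 1274 in KO against 1332 to 1588 in Control. In refed liver the summed hepatocyte markers were also lower in KO without overlap, at 63592 to 64770 against 67283 to 76041. The lymphocyte markers were lower too, at 912 to 1142 against 1199 to 1320. The Kupffer cell or macrophage markers were higher, at 1012 to 1197 against 855 to 960. In fasted liver these other sums overlapped. No single marker was called, and the part of these cell types in the results was not tested. The median log2 difference of the 153 regions was 0.03 in fasted and 0.13 in refed liver, beside 0.04 and 0.10 for all regions. The median of all regions in refed liver was 0.02 after median-ratio rescaling and -0.02 after quantile normalization, 2 scalings that bring the libraries' centres together by construction.

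In fasted liver C3 was the gene with more mark in the knockout. It had 4781, 4819.5 and 4622 units in KO fasted mice, against 3723, 3324 and 3031 in Control fasted mice, and 4158, 4055 and 5015 in KO refed mice, against 4462, 3869 and 4008 in Control refed mice. In the fasted state the genotypes did not overlap and the difference was 0.50 ± 0.09 (adjusted p = 0.0235). In the refed state they overlapped (0.10 ± 0.09, adjusted p = 0.624). C4bp had the opposite sign, with 1813, 1692 and 1929.9 units in KO fasted mice, against 2569, 2259 and 2205 in Control fasted mice. The difference was -0.37 ± 0.08 (adjusted p = 0.0477), and in refed liver it was -0.13 ± 0.08 (adjusted p = 0.395). Both calls are fragile. That of C3 was lost under median-ratio rescaling (adjusted p = 0.101), edgeR (0.104) and in 5 other alternatives of 20, among them leaving out any 1 KO fasted mouse, and that of C4bp in 15 of 20. Without 1 library, C3 was lost for KO fasted mice 1, 2 and 3 and Control fasted mouse 3 (adjusted p of 0.0504 to 0.0947) and C4bp for 11 of 12 libraries, Control fasted mouse 2 being the exception (0.0507 to 0.17). Whether the fasted and refed differences differ was tested by the interaction, with adjusted p of 0.304 for C3 and 0.521 for C4bp.

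The promoter of C3 is shown as that of the gene with more mark in KO fasted liver. Capitals mark TTGCNNAA, beginning 45 bases before the start. Neither this promoter nor that of C4bp holds AGATAA or TGATAA within the 300 bases.
C3, GRCm38.p6 chr17:57228087-57228386, minus strand: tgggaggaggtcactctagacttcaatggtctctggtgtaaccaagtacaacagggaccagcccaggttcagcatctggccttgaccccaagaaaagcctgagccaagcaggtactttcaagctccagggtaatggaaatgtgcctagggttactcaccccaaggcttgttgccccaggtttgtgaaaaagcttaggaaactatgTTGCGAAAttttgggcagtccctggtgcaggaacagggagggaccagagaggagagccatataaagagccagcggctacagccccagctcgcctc

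**Figure D5:**
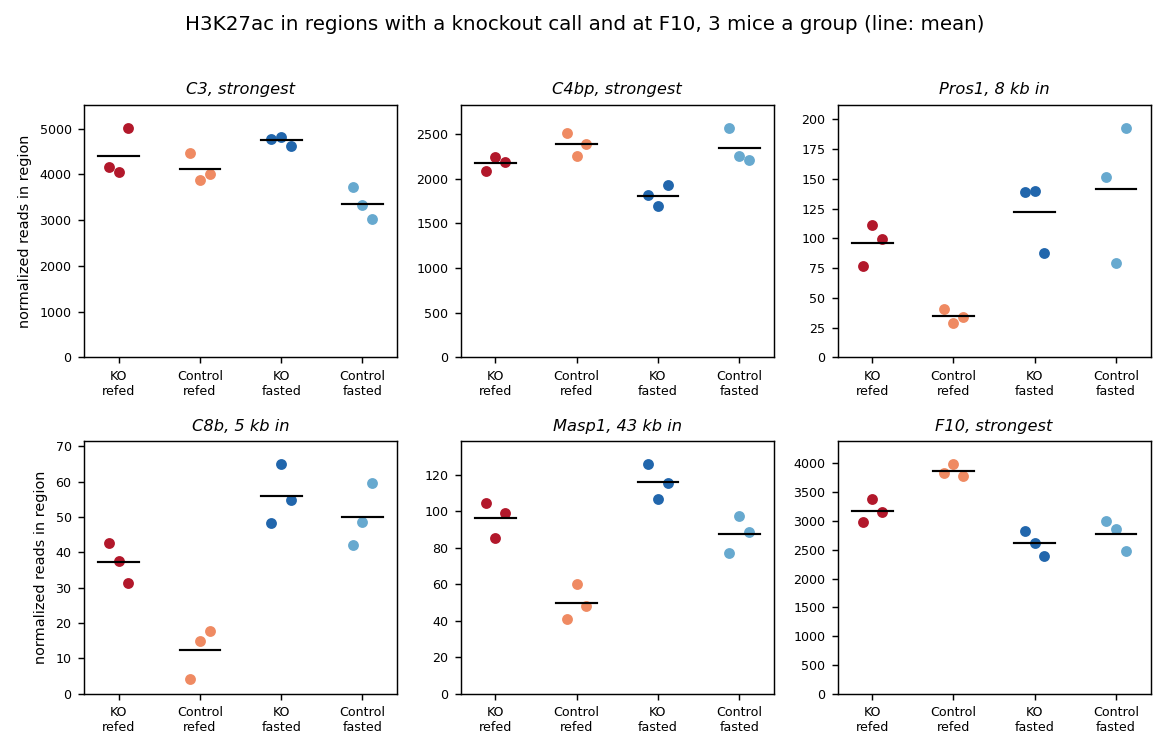
Normalized H3K27ac reads (y axis, from 0) per mouse, with a line at the mean of 3 mice, in KO refed, Control refed, KO fasted and Control fasted liver, for the 5 regions called between genotypes and for F10. C3 is higher and C4bp lower in KO fasted than in Control fasted mice, and the Pros1, C8b and Masp1 regions are higher in KO refed than in Control refed mice.

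In refed liver the 3 regions with more mark in the knockout were small intronic ones that refeeding lowered in Control liver. Both comparisons use the same Control refed mice, so low values in these mice favour both results by construction. At Pros1, 8229 bp into the gene, KO refed mice had 76.5, 112 and 99.1 units, against 41.0, 28.8 and 33.7 in Control refed mice, a difference of 1.44 ± 0.30 (adjusted p = 0.0254). At C8b, 5306 bp into the gene, KO refed mice had 42.7, 37.6 and 31.2 units, against 4.18, 14.8 and 17.8 in Control refed mice, a difference of 1.71 ± 0.40 (adjusted p = 0.0431). At Masp1, 42964 bp into the gene, KO refed mice had 105, 85.4 and 99.1 units, against 41.0, 60.3 and 48.0 in Control refed mice, a difference of 0.95 ± 0.19 (adjusted p = 0.024). The genotypes did not overlap at these 3 (17.6% of all regions were higher in every KO refed than in every Control refed mouse), and in fasted liver their differences were -0.15 ± 0.30, 0.16 ± 0.40 and 0.40 ± 0.19, none called. Quantile normalization ended these 3 calls. The Pros1 call was also lost with edgeR (adjusted p = 0.0544), the Masp1 call in the fit of the compared groups only (0.0681), and the C8b call under median-ratio rescaling (0.0579), edgeR (0.0614) and the fit of the compared groups only (0.109). Among single libraries, the Pros1 call was lost without KO refed mouse 2 or 3 or Control refed mouse 2 or 3 (adjusted p of 0.0569 to 0.0848), the Masp1 call without mouse 1 or 3 of either refed group (0.0569 to 0.087), and the C8b call without any 1 of 10 of the 12 libraries (0.0502 to 0.123). With DESeq2, F10, Proz, Serpinc1 and C8g were lower in KO refed than in Control refed liver at their strongest regions (-0.38, -0.33, -0.29 and -0.28; adjusted p = 0.017, 0.0285, 0.031 and 0.0129), where limma gave -0.29 ± 0.08, -0.24 ± 0.07, -0.20 ± 0.06 and -0.19 ± 0.07 (adjusted p = 0.0834, 0.106, 0.0881 and 0.163). At these 4 genes every KO refed mouse was below every Control refed mouse, as at 11.9% of all genes. The authors' deposited table of refed liver lists 4200 regions in all, 7 of them of these genes. Among the 7 are the 3 called here and the F10 region, which has a log2 ratio of -0.41 and a false discovery rate of 0.0221. The authors' deposited table of fasted liver lists 2021 regions in all. Of these genes it lists 6 regions, of Serpinc1, Kng1, Mbl2, F9 and Pros1 (2 regions), and neither C3 nor C4bp. The log2 ratio was -1.14 at F9 11347 bp into the gene, with a false discovery rate (FDR) of 0.017. At Pros1 it was -0.89 at 17169 bp (FDR 0.0369) and -2.43 at 26937 bp into the gene (FDR 0.000202). It was -1.01 at Serpinc1 (FDR 0.0349), 0.94 at Kng1 (FDR 0.00961) and 0.94 at Mbl2 (FDR 0.0408). None of these 6 was called with limma on all mice.

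Further differences at F9 and Pros1 were called without Control fasted mouse 2, whose values lay below those of the other Control fasted mice at the strongest regions of both genes. Without it, F9 was lower in KO than in Control fasted liver at its strongest region (-0.54, adjusted p = 0.043) and 14587 bp into the gene (-0.78, adjusted p = 0.0243), and Pros1 at its strongest region (-0.38, adjusted p = 0.0402). With all mice these differences were -0.37 ± 0.14, -0.46 ± 0.21 and -0.24 ± 0.10 (adjusted p = 0.26, 0.372 and 0.328). Without that mouse the refeeding effect also differed between genotypes at 3 regions, 2 of F9 (1.10 and 1.18, adjusted p = 0.0457 and 0.0253) and 1 of Pros1 (1.96, adjusted p = 0.0443), a positive value meaning a smaller fall in KO liver, and F9 was higher in KO refed than in Control refed liver 8785 bp from its TSS (0.61, adjusted p = 0.0267). Calls also became more numerous across all regions when this mouse was left out. In fasted liver 617 regions were then higher and 301 lower in KO, against 199 and 156 with all mice, and for the interaction 96 were higher and 52 lower, against 10 and 5. Each mouse was left out in turn, and this one is described because its values stood apart at these genes. Across all regions its lowest correlation within its group was 0.958, against 0.954 for Control fasted mice 1 and 3. Leaving out a low Control fasted mouse raises the mean of that group at these regions by construction. The fasted and interaction calls without it therefore cannot decide whether the genotypes differ there. The authors' deposited table of fasted liver lists other regions of both genes, with the negative log2 ratios given above. With all mice, DESeq2 called a weak Pros1 region 26937 bp into the gene lower in KO refed than in Control refed liver (adjusted p = 0.0229). It held 0 units in all 3 KO refed mice and 8.36, 0 and 9.77 in Control refed mice, so the groups overlapped at 0, and limma gave an adjusted p of 0.264. The authors' deposited tables also list this region. Its log2 ratio there was -2.68 in refed (FDR 0.000219) and -2.43 in fasted liver (FDR 0.000202).

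Some of the regions lie at GATA4 binding sites. The authors' table gives a GATA4 ChIP peak within 500 bp for 9 of 153 regions (5.88%) and for 8.31% of all regions. Among them are 7 of the 37 strongest regions, those of F2, F10, F11, Fga, Masp1, C4b and Cfi. Of the strongest regions of all genes 13.1% had such a peak, so the lower share does not hold for the strongest regions. None of the 9 was called between KO and Control in fasted or in refed liver, where 1.27% and 2.04% of all regions at GATA4 peaks were called; 2 of the 9 had an unadjusted p under 0.05 in each state.

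Other genes of the same cascades come from a list drawn up with the members known. Of 24 measured coagulation and fibrinolysis genes of 28 listed, 6 rose and 3 fell in KO liver with refeeding and 8 rose and 2 fell in Control liver, and none was called between genotypes. Of all genes 22.6% rose and 10.6% fell in KO liver and 21.2% rose and 12.2% fell in Control liver, so the KO counts of this list are near those of all genes. Hgfac, a protease gene, rose by 0.47 ± 0.07 in KO and 0.61 ± 0.07 in Control liver, Lman1, a cargo receptor for factors V and VIII, by 0.50 ± 0.07 and 0.55 ± 0.07, and F3, the gene of tissue factor, by 0.41 ± 0.07 and 0.54 ± 0.07, all of them called. Of 25 measured complement genes of 33 listed, 1 rose and 0 fell in KO liver and 2 rose and 3 fell in Control liver. The 1 call between the genotypes in both lists was an intergenic region assigned to Cr2, a complement receptor gene, 65051 bp upstream of its TSS. It was lower in KO refed than in Control refed liver (-0.64 ± 0.11, adjusted p = 0.0102), is 853 bp wide and held 2196 units per kb, against 475 at most in the other regions of these lists.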

How the data were processed

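H3K27ac chromatin immunoprecipitation (antibody ab4729) was sequenced from frozen liver of 12 mice, 3 in each of 4 groups; the input libraries were not analysed here. The deposited table holds the authors' normalized signal for each region, a whole number of reads times 1 constant per library, with every library at the same total; 100% of values were whole within 0.01 of a read. The submitters' processing notes name, without role or order, MACS2, HOMER, DiffBind, edgeR, deepTools, bedtools, SAMtools, Bowtie2, Trim Galore, FastQC and the mm9 build. Tool versions: not given in the sources used here. The authors' deposited comparison tables give log2 ratios and FDR values and list only regions past the authors' FDR threshold; the sign of the interaction table is not stated.

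All 63686 regions were fitted with limma (3.58.1, R 4.3.3) on log2(value + 1) with an intensity trend, 12 libraries in 1 model, and p-values were adjusted by Benjamini-Hochberg over all regions; a call is an adjusted p under 0.05. Changes of low regions are understated on this scale. Alternatives were other pseudocounts and scalings, no low regions, edgeR (4.0.16) and DESeq2 (1.42.0) on the recovered reads, a fit of the compared groups only and each library left out. The fit was tested on simulated data with changes placed only in regions of higher mean, so that test does not cover low regions. Depth sets precision by counting error only, and 3 reads is taken as the floor. P-values measure the spread between these mice. Figures used Python 3.11.15 and matplotlib 3.10.9.

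The genes and lists were chosen with earlier results of these data known, and the split by position was made after the values were seen. All strongest regions are named, most of those called with the values of all mice (up to 12 per comparison by adjusted p, and F2 beyond these). Up to 8 further called regions per comparison were named by size of change, and every other one was chosen after its values were seen. Results for a few listed genes and 1 motif are not reported here.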

Additional observations from a re-analysis of the deposited data

Results flagged for a closer look

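The effect of refeeding differed between genotypes at 4 intronic regions of F9 and Pros1, by some fits and not by others. With limma on all mice none passed. At Pros1 17169 bp into the gene, DESeq2 gave a difference of 1.61 on the log2 scale (adjusted p = 0.0147), and the authors' deposited interaction table lists a log2 ratio of 1.50 (FDR 0.00166). At Pros1 8229 bp into the gene, limma without Control fasted mouse 2 gave 1.96 (adjusted p = 0.0443), and the authors' deposited interaction table lists 1.42 (FDR 0.0124). At F9 8785 bp into the gene, limma without Control fasted mouse 2 gave 1.18 (adjusted p = 0.0253), and the authors' deposited interaction table lists 0.75 (FDR 0.0402). At F9 14587 bp into the gene, limma without Control fasted mouse 2 gave 1.10 (adjusted p = 0.0457). That mouse was lowest of its group at the strongest regions of both genes, and leaving it out widens the Control fall by construction. The fits without it cannot decide whether the effects differ. In the limma and DESeq2 values a positive sign means a smaller fall in KO than in Control liver; the sign of the authors' table is not stated. That table lists 972 regions in all, 3 of them of these genes.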

How the results depend on the processing

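No paired analysis was possible because the labels give the mice no number shared between groups. Numbers of called regions between KO and Control were small and moved with the processing; the cause was not tested. In fasted liver the 2 called regions, which are also the 2 called genes, became 0 with median-ratio rescaling, 1 with quantile normalization, 0 with edgeR and 0 when only the compared groups were fitted. In refed liver the 3 called regions became 0 with quantile normalization, 1 with edgeR, 1 when only the compared groups were fitted and 8 with DESeq2 (3 higher, 5 lower), and the 0 called genes became 4 with DESeq2. The 0 regions of the interaction became 1 with DESeq2. DESeq2 called more of all regions too. In refed liver it called 1555 higher and 1168 lower in KO, against 1100 and 189 with limma. For the interaction it called 314 higher and 195 lower, against 10 and 5. The 9 genes called with refeeding in KO liver became 5 with median-ratio rescaling and 5 with edgeR. Without 1 library the called regions ranged over 0 to 3 and 0 to 5 for KO against Control in refed and fasted liver, 22 to 39 and 53 to 67 for refeeding in KO and Control liver, and 0 to 3 for the interaction. The called genes ranged over 0 to 0, 0 to 4, 5 to 11, 14 to 18 and 0 to 0 in the same order. The majority of higher genes in refed Control liver reversed without Control fasted mouse 3 (15 genes) and without Control refed mouse 1 (14 genes). Of single regions called with refeeding, 16 of 34 in KO and 42 of 67 in Control liver kept their call in every alternative; of those called between genotypes 0 of 3 in refed and 0 of 2 in fasted liver did. At the lowest regions a few reads set the value, so a difference there was often not detectable at this depth.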
